A study of Mus musculus with 108 samples.

Results

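Of 108 RNA-seq libraries of kidney, liver and white fat (WAT), 9 are described here: the Bmal1-iKO kidneys of ZT6, ZT14 and ZT18, where ZT (zeitgeber time) counts the hours since the lights came on. The 6 that carry sample number 1 or 2 were set against the 3 that carry number 3, with time as a covariate and no comparison of genotypes. The members were chosen by measured values: numbers 1 and 2 are those whose liver libraries at these times had high cell cycle genes, and their kidneys were known to have high interferon-stimulated genes. The mean of 31 cell cycle genes, in log2 CPM (counts scaled to library size), ran from 2.996 to 3.40 in the 6 livers and from -0.14 to 0.45 in the 3. These liver values and the kidney interferon genes are therefore given as a description, with no test.

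The series compared Bmal1-iKO with Bmal1-flox mice at ZT2, ZT6, ZT10, ZT14, ZT18 and ZT22, with 3 libraries per tissue, genotype and time, and its title concerns the clock of the intestine and rhythmic metabolism of the liver. All 9 kidneys are labelled male, strain C57BL/J, aged 8 to 12 weeks, genotype Bmal1-iKO. The animals were kept on 12 h of light and 12 h of darkness with food and water always available. Both groups carry the same genotype label, and whether the deletion is equally present in the compared libraries was not checked. The labels give no agent that induces a deletion, do not say in which cells Bmal1 was deleted, and do not say that a number marks 1 animal across tissues or that each library came from its own animal. P-values therefore measure the spread between these libraries, which may be technical in part.

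Total counts of the 9 kidneys ran from 16446000 to 22123000. Bmal1, listed under its symbol Arntl, was counted at 2.02 to 36.6 CPM in the 6 and at 3.85 to 22.5 CPM in the 3, against 1.24 to 35.5 CPM in the 18 Bmal1-flox kidneys. Counts over the whole gene do not show which part was deleted, so they do not check the genotype label. The library labelled male at ZT18 with number 1 had 211 CPM of Xist and 0.10 CPM summed over 4 Y-linked genes, while the other 8 kidneys had 109 to 155 CPM of the Y-linked genes. Its label and these values do not match, and the liver and WAT libraries of the same label showed the same, with 374 and 499.6 CPM of Xist and 0 reads of the Y-linked genes. List counts below are also given without this kidney. Kidney identity was clear: the mean of 20 proximal tubule genes was 7.71 to 10.11 log2 CPM over the 9 libraries, that of 10 podocyte genes 4.45 to 5.90.

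Type I and type III interferons bind cell surface receptors, and JAK kinases then phosphorylate STAT proteins. With IRF9 these form a complex that binds interferon-stimulated response elements (ISRE) in promoters and turns on antiviral effectors, antigen presentation genes and the cell's own nucleic acid sensors. Interferon gamma strongly induces a family of defence GTPases. The mouse kidney also has a large sex-dependent programme in the proximal tubule, where androgens raise many transporters and enzymes of males.

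Promoters of 4 interferon-stimulated genes that stand for the families described below are shown 5′ to 3′ on the strand of the gene, with matches to the ISRE core GAAANNGAAA in capitals. The windows are RefSeq's, on GRCm38.p6, and hold 250 bases before and 50 after the start; where a gene had several windows the first was used.
Ifit1 promoter, chr19:34640639-34640938, plus strand: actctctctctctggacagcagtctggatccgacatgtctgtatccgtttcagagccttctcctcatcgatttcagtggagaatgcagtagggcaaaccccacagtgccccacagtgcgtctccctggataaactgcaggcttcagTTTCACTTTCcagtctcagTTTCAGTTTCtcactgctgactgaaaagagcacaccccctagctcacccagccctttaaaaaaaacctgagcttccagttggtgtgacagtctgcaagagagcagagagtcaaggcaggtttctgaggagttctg
Isg15 promoter, chr4:156200769-156201068, minus strand: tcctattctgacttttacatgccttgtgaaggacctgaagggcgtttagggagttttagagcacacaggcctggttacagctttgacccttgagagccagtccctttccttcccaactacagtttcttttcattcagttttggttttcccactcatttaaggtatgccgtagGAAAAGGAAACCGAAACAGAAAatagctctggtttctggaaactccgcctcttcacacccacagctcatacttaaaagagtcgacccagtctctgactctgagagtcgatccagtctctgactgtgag
Oas1a promoter, chr5:120907476-120907775, minus strand: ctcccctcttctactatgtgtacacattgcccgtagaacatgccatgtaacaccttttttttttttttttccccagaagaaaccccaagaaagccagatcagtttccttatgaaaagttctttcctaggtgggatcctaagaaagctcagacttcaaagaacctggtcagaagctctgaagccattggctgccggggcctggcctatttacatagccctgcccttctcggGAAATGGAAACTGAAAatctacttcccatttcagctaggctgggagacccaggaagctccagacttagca
Igtp promoter, chr11:58199306-58199605, plus strand: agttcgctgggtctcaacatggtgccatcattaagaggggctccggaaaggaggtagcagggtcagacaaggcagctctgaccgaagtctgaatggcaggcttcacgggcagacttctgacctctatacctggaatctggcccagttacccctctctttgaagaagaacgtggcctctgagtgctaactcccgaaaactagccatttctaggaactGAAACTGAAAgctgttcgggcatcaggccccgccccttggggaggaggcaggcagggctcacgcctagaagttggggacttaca
The core was searched on both strands, with overlapping matches allowed. It was found in 26 of 56 effector genes with a window (46.4%) and in all 9 interferon-inducible GTPases that had one, against 385 of 11903 genes tested in kidney (3.23%). MHC class I and antigen processing genes held it in 5 of 19 windows. None of the 9 male-biased kidney genes and none of the 16 proximal tubule genes with a window held it. A match is a description of letters in this window and not a binding site.

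Ifit1, a tetratricopeptide protein that binds foreign RNA caps, marks the split. It lies at chr19:34640871-34650009 (GRCm38, plus strand). At ZT6 it stood at 122 and 373 CPM in numbers 1 and 2 and at 11.9 CPM in number 3. The ZT14 kidneys had 51.6 and 224 against 4.50 CPM, and the ZT18 kidneys 167 and 103 against 4.33 CPM. All 6 lay above all 3, and the fitted log2 difference was 4.75 (SE 0.65). Isg15, a ubiquitin-like modifier at chr4:156199424-156200818, had 34.7 CPM as the lowest, 90.2 as the median and 180 as the highest of the 6, against 2.57, 1.81 and 2.51 CPM in the 3. Its log2 difference was 5.38 (SE 0.65), and the number 1 kidney of ZT14 was the lowest of the 6 for both genes.

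Of the 70 antiviral effectors listed, 68 passed the filter on low counts, and all 68 had a positive log2 difference. Their median was 2.55, where the median of all 16395 genes tested was 0.04. In 62 of the 68 all 6 libraries lay above all 3, which held for 8.45% of all genes tested; because these genes gave the group its name, nothing is read from that count. Lgals3bp, a secreted glycoprotein, had 59.6, 42.2 and 52.6 CPM in the 3 and 248 to 509 CPM, median 383, in the 6. Bst2 (tetherin), which holds budding virus at the cell surface, had 17.5, 12.6 and 13.5 CPM against 96.0 to 318 CPM, median 220. Ifitm3, which blocks viral fusion, had 30.5, 22.4 and 24.3 CPM against 81.0 to 330 CPM, median 234. The 2 groups did not overlap for any of these 3 genes. Ifit3 and its near copy Ifit3b had log2 differences of 3.79 and 3.75, and reads of such copies, and of Oas1a and Oas1g, may have been split by the counting.

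Not all effectors were apart. Samd9l, an antiviral factor, overlapped, with 163 to 267 CPM in the 6 and 237, 145 and 144 CPM in the 3, and a log2 difference of 0.31. Trim25, an E3 ligase that acts on a sensor of viral RNA, differed by 0.27, and Ifit1bl1 and Ifit1bl2, relatives of Ifit1, by 0.33 and 0.08 (these 3 genes were picked after their values were seen).

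Among the signal transducers Irf9 and Stat2, parts of the complex that binds the ISRE, were high and the receptors were not. Irf9 had 62.1 to 117 CPM, median 88.3, against 24.3, 16.7 and 22.1 CPM. Stat2 differed by 2.68 (SE 0.24), with no overlap between groups. Usp18, which removes ISG15 from proteins and dampens receptor signalling, differed by 4.19 (SE 0.55). The receptor chains Ifnar1, Ifngr1 and Ifngr2 overlapped between groups, with log2 differences of 0.22, 0.04 and -0.16. The kinase Jak1 was 93.7 to 118 CPM in the 6 and 134, 124 and 121 CPM in the 3, a difference of -0.25. Over the 15 listed, 5 had all 6 libraries above and 1 all 6 below, where 8.45% and 10.5% of all genes tested did.

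Irf7, the factor that amplifies interferon production, had the widest difference of the 20 nucleic acid sensors and interferon regulatory factors. It stood at 125 to 694 CPM, median 405, in the 6 and at 13.7, 12.3 and 13.9 CPM in the 3, a log2 difference of 4.92 (SE 0.47). The RNA sensors Ddx58 (RIG-I) and Ifih1 (MDA5) differed by 1.94 and 1.75, and Irf1 by 1.26. Mavs, Irf3 and Tbk1, which relay the sensors' signal, overlapped between groups, with differences of -0.03, 0.31 and -0.08. Irf5 was lower in most of the 6, with a difference of -0.68, and also overlapped. The list's median was 1.27, with 10 of 20 genes showing all 6 above, where 8.45% of all genes tested did.

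The interferon-inducible GTPases, which attack membranes around intracellular microbes, had 16 of 18 listed genes past the filter and a median of 2.30. Irgm1 had 141 to 329 CPM, median 199, against 53.4, 31.2 and 35.8 CPM. Gbp3 differed by 3.56, Iigp1 by 2.76 and Igtp by 2.29, each without overlap. In 10 of the 16 all 6 libraries lay above all 3, which held for 8.45% of all genes tested. Gbp2 and Gbp7 were among those that overlapped, since the number 1 kidney of ZT14 was no higher than the number 3 kidney of ZT6. Tgtp1 and Tgtp2 are near copies, and their reads may be split.

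Interferon transcripts themselves were almost absent. Of 21 interferon genes in the table, 5 had any count in the 9 kidneys, no library held more than 5 reads over all of them, and none passed the filter. Ifnb1 and the listed Ifna genes had 0 reads in all 9 kidneys, and Ifng had 4 reads over the 6 and 3 over the 3. At this depth a difference in interferon transcripts was not detectable.

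**Figure D1:**
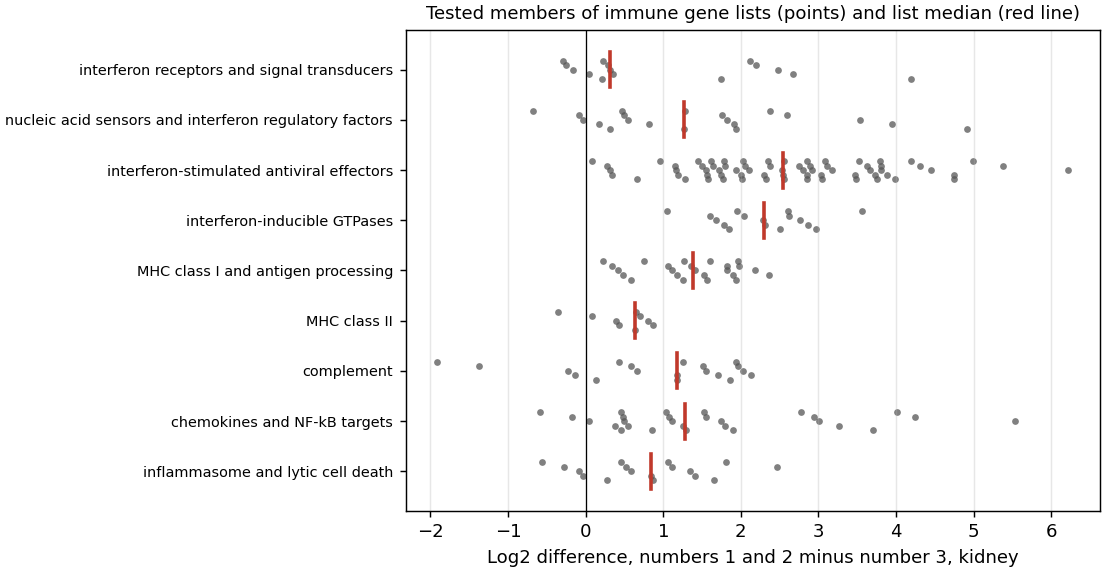
Each point is a tested gene, placed by its log2 difference in kidney (numbers 1 and 2 minus number 3, x axis) within its list (y axis), and the red line is the list's median. Effectors and GTPases sit almost wholly to the right of 0 with medians of 2.55 and 2.30, while MHC class II genes have a median of 0.64.

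The same numbers can be compared in livers and WAT. The mean log2 CPM of the 68 effectors was 3.77 to 5.73 in the 6 kidneys and 2.19 to 2.77 in the 3. In liver it was 5.25 to 6.17 against 2.59 to 3.20. WAT of the 6 had 3.70 to 6.04, with a median of 5.47, against 3.25 to 3.64, and its number 2 library of ZT18 lay just above number 3. Liver and kidney thus did not overlap between the groups, and WAT came close to overlap.

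WAT was not used to choose the numbers, so it was tested. edgeR's quasi-likelihood test called 1 of 18745 genes (0.00533%), with 5689 reads in the 6 libraries and 2 in the 3 for Smpx, a small muscle protein gene named because it was the only call. None of the 68 effectors passed by edgeR, while DESeq2 called 44 of them higher. Their median log2 difference was 1.98 against 0.04 for all genes tested in WAT, and 46 of 68 were higher at an unadjusted p under 0.05, where 11.4% of all genes were. Ifit1 in WAT had 142, 136, 25.6, 112, 173 and 8.68 CPM in the 6 (numbers 1 and 2 at ZT6, then ZT14, then ZT18) and 10.5, 7.30 and 20.1 CPM in the 3. The groups overlapped through the number 2 library of ZT18, and the log2 difference of Ifit1 was 3.01 (SE 0.97, adjusted p = 0.160 by edgeR). That library's share of mitochondrial reads was 29.8%, against 3.07 to 7.99% in the other 5. In the 3 the share was 18.8, 3.09 and 2.37% at ZT6, ZT14 and ZT18. DESeq2 called 3271 genes in WAT and edgeR without a filter 917, so the number of calls rested on the tool and the filter. Adrenal gland genes were high in 2 WAT libraries of the 6: 12 adrenal gland genes summed to 29229.8 CPM in number 1 of ZT18 and 13671 CPM in number 1 of ZT6, against 10.99 to 62.5 CPM in the other 7. Their part in the WAT values was not tested. Without number 1 of ZT18 the effectors' median in WAT was 1.63, without number 1 of ZT6 it was 1.92 and without number 2 of ZT18 it was 2.13.

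**Figure D2:**
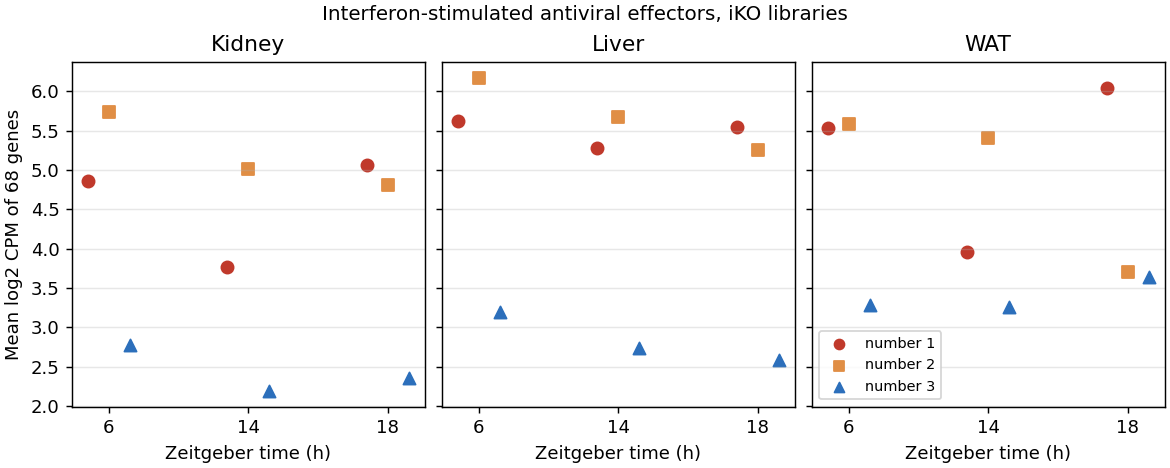
Mean log2 CPM of 68 antiviral effectors (y axis) in each iKO library at ZT6, ZT14 and ZT18 (x axis) of kidney, liver and WAT, with numbers shown by colour and shape. In kidney and liver numbers 1 and 2 lie above number 3 at each time, and in WAT number 2 at ZT18 (3.70) is next to number 3 (3.64).

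In kidney, 3362 of 16395 genes tested (20.5%) were called at an adjusted p under 0.05 by edgeR's quasi-likelihood test, 1537 higher (9.37%) and 1825 lower (11.1%) in numbers 1 and 2. Without the ZT18 library whose label and Y-linked counts do not match, 2974 were called. The count fell to 1722 without the number 3 kidney of ZT6 and to 1434 without that of ZT18, and without all kidneys of ZT6 or of ZT18 to 1097 and 1349. Several list counts below fell in the same settings: without ZT6 there were 11 MHC class I, 4 macrophage, 3 neutrophil, 2 podocyte and 4 gluconeogenesis calls, and without ZT18 12, 8, 2, 7 and 7. Number defines the groups, so an effect of number and of anything else that libraries of a number share cannot be told apart. In bulk tissue fewer cells of a type and less RNA per cell cannot be told apart either.

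Of 24 tested genes of MHC class I antigen presentation, itself inducible by interferon, 19 were higher and none lower, with a median log2 difference of 1.39. Among all genes tested 9.37% were called higher. The groups were known to differ in interferon-stimulated genes, so nothing is read from that count or from the adjusted p-values of these genes. Tap1, which carries peptides into the endoplasmic reticulum, had 25.7 to 89.7 CPM, median 62.2, against 16.8, 8.84 and 14.05 CPM. The 6 did not overlap with the 3 (log2 difference 2.18, SE 0.20, adjusted p = 0.000244). The immunoproteasome subunits Psmb8 and Psmb10 rose by 2.36 (adjusted p = 0.00116) and 1.82 (adjusted p = 0.000701). H2-Q4 rose by 1.90, with the caution that H2-Q genes share sequence. Without the number 3 kidney of ZT6, 13 of the class I genes were called, and without the mismatched ZT18 library 19.

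MHC class II, carried by professional antigen presenting cells, gave 3 of 9 genes called higher, with a median of 0.64, while 9.37% of all genes tested were called higher. H2-DMb1 (0.70), H2-Ab1 (0.80) and H2-DMa (0.65) were the 3, and each lost its call in at least 8 of the 17 other settings. The groups overlapped for H2-Ab1, at 58.8 to 125 CPM against 51.9, 39.97 and 60.8 CPM. A difference between the class I and class II lists was not tested.

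Complement genes were mostly higher, with 11 of 19 called up, 1 down and a median of 1.18. Among all genes tested 9.37% were called higher and 11.1% lower. There were 11 rises without the mismatched ZT18 library and 4 without all kidneys of ZT6. C1qc, a chain of the first complement component made mainly by macrophages, had 14.3 to 38.1 CPM, median 31.6, against 8.82, 7.62 and 7.37 CPM. It rose by 1.86 (SE 0.24, adjusted p = 0.00107), and the groups did not overlap. C1qb rose by 1.71, Cfp (properdin) by 2.13 and C1ra by 1.18. Cfb, a factor of the alternative pathway, was the 1 lower gene, at a log2 difference of -1.91 (adjusted p = 0.0173), named because it went against the rest. The part of interferon in the complement rises was not tested.

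Of the chemokines and NF-kB targets, 9 of 28 rose and none fell, with a median of 1.27, while 9.37% of all genes tested rose. The rises were 6 without the mismatched ZT18 library, 4 and 3 without the number 3 kidney of ZT6 or ZT18, 2 without all kidneys of either time, and 17 by DESeq2. Il18bp, a decoy for interleukin 18, rose by 1.55 (adjusted p = 0.0034), from 3.48, 2.44 and 4.43 CPM to between 6.03 and 14.2 CPM. Ccl12, a monocyte chemokine, was at 0.27, 0.00 and 0.11 CPM in the 3 and at 1.10 to 10.3 CPM in the 6. Its call (5.53, adjusted p = 0.0134) was lost in 5 of 17 other settings. Near 0 in the 3, Ccl12 could pass the filter only through the 6, so nothing is read from its adjusted p. Of the inflammasome and lytic cell death genes 7 of 17 rose and 1 fell, where 9.37% and 11.1% of all genes tested did. There were 4 rises without the mismatched library, and 1 to 4 without any 1 kidney of ZT6, number 2 of ZT14 or number 3 of ZT18. Mlkl, the executioner of necroptosis, rose by 2.46 (adjusted p = 0.00465), although the number 1 kidney of ZT14 (1.45 CPM) lay below the number 3 kidney of ZT6 (1.55 CPM). Which genes of either list interferon induces was not tested, and the groups were known to differ in interferon-stimulated genes. Nothing is therefore read from these counts or adjusted p-values.

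Markers of myeloid cells were higher in numbers 1 and 2. Of 23 macrophage and monocyte genes 17 rose and none fell, where 9.37% of all genes tested rose. The list's median log2 difference was 1.71, and its mean ran from 2.19 to 3.98 log2 CPM in the 6 and from 1.69 to 1.79 in the 3. Leaving out the 3 complement genes it shares, 14 of 20 rose. Fcgr1, a high-affinity antibody receptor, had 3.48 to 19.3 CPM, median 11.8, against 1.60, 0.78 and 1.12 CPM, and rose by 3.35 (adjusted p = 0.0032). The macrophage growth factor receptor Csf1r differed by 0.05 (adjusted p = 0.885), and Cd163 by -0.22 (both picked after their values were seen). The macrophage count was 15 without the mismatched ZT18 library, 8 without the number 3 kidney of ZT6 and 9 without that of ZT18. The part of myeloid cells in the interferon genes' levels was not tested. Nor was it tested which of the macrophage genes interferon induces, so nothing is read from their count or adjusted p-values.

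Neutrophil genes were near 0 in the 3 and low in the 6. S100a8 and S100a9, the subunits of calprotectin, had 0.66 to 11.5 CPM, median 6.17, and 1.19 to 11.05 CPM, median 6.59, in the 6. In the 3, S100a8 had 0.00, 0.05 and 0.05 CPM and S100a9 0.37, 0.10 and 0.21 CPM. S100a8 had 764 reads in the 6 and 2 in the 3, 199.7-fold more per total count with a 95% counting interval of 55.1 to 1652 (exact Clopper-Pearson; adjusted p = 0.00345 by edgeR). S100a9 rose by 4.84 on the log2 scale (adjusted p = 0.00109). Mmp8, neutrophil collagenase, had 100 reads over the 6 libraries and 0 over the 3, at least 17.4-fold higher with 3 reads over the group as the floor. In all, 6 of the 7 tested neutrophil genes of 13 listed rose, where 9.37% of all genes tested did. The rises were 5 without the mismatched ZT18 library and 3 without the number 3 kidney of ZT6. Genes near 0 in the 3 could pass the filter only through the 6, where they were high, so nothing is read from this count or from their adjusted p-values. The granule genes Mpo and Elane, each with 5 reads in the 6, were not tested.

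Lymphoid genes gave calls in both directions. Of 20 T and NK cell genes 3 rose (1 without the mismatched ZT18 library), where 9.37% of all genes tested rose. Among the 3 was Gzma, a cytotoxic protease, at 1.58 to 5.62 CPM against 0.21, 0.29 and 0.86 CPM (log2 difference 2.93, adjusted p = 0.00417). Among 11 B and plasma cell genes Ighm, Sdc1 and the IgM receptor Fcmr were called higher (1.01, 0.58 and 2.50; Fcmr was picked after its value was seen), and the immunoglobulin genes Igkc (-1.24) and Jchain (-1.45) lower. Each of these 5 calls was lost in 5 or more of the 17 other settings. Slfn4 and Ms4a4c, myeloid genes that were not placed in the interferon lists, rose by 5.20 (adjusted p = 0.00544) and 5.01 (adjusted p = 0.00275). Relatives of Slfn4, such as Slfn1 and Slfn2, were among the listed effectors. Nothing about myeloid cells is therefore read from these rises.

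The male-biased kidney genes were far lower in numbers 1 and 2. All 12 listed genes passed the filter, all 12 were called lower and in all 12 the 6 libraries lay below the 3, which held for 10.5% of all genes tested. Their median log2 difference was -5.35, where that of all genes was 0.04. The list's mean was 3.12 to 4.01 log2 CPM in the 6 and 8.75 to 9.31 in the 3. The 12 calls held without the mismatched ZT18 library, and 11 or 12 held without any other 1 of the 9.

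Slco1a1, an organic anion transporter of the male proximal tubule at chr6:141907282-141946962, was all but absent from the 6. It had 503, 165 and 178 CPM in the 3 and at most 0.23 CPM in the 6, where the ZT6 number 1 kidney had 0 reads. The log2 difference was -11.08 (SE 0.39, adjusted p = 1.9e-06). Acsm3, a mitochondrial acyl-CoA synthetase, had 633, 506 and 309 CPM against 0.51 to 1.40 CPM, median 0.78, a difference of -9.12 (adjusted p = 1.9e-06). Cyp2j13, an epoxygenase of the cytochrome P450 family, had 239, 174 and 150 CPM against 0 to 0.28 CPM and differed by -10.81. None of the 3 showed any overlap.

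Cyp7b1, the oxysterol 7-alpha-hydroxylase, had the smallest p of all genes tested. It stood at 472, 169 and 288 CPM in the 3 and at 3.83 to 7.15 CPM, median 5.66, in the 6. The log2 difference was -5.72 (SE 0.15, adjusted p = 8.66e-08), with -6.04 at ZT6, -5.41 at ZT14 and -5.66 at ZT18. At the other end, Kap, the kidney androgen-regulated protein, fell by 1.20 on the log2 scale (adjusted p = 0.0281) and was still counted at a mean of 11200.4 CPM in the 6 against 22680 CPM in the 3 (named after its values were seen). The 8 kidneys with Y-linked counts therefore include 5 in which the male-biased genes were low.

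**Figure D3:**
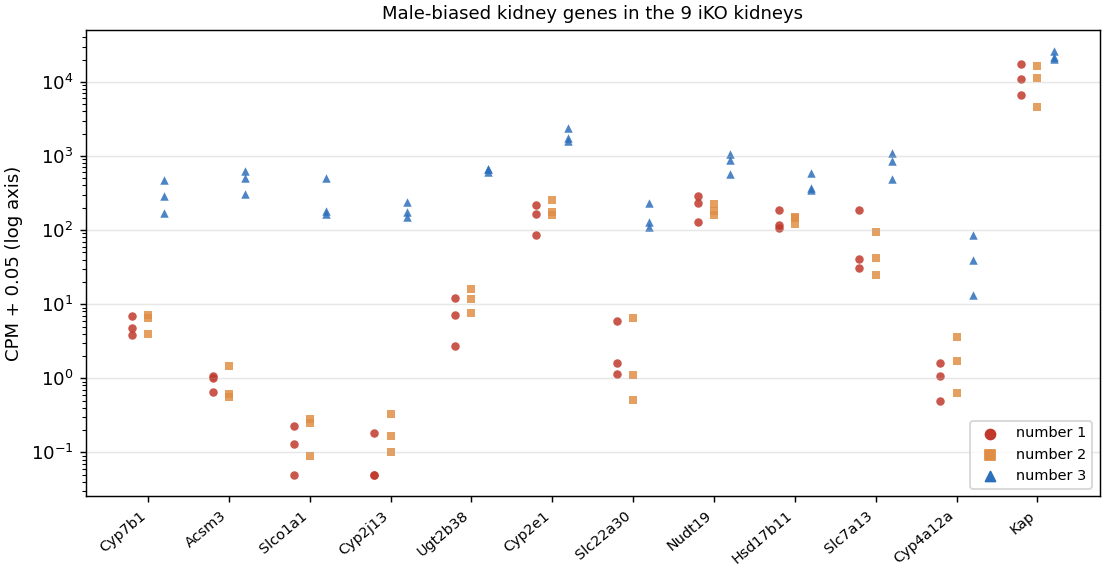
CPM plus 0.05 on a log axis for the 12 male-biased genes in each of the 9 iKO kidneys, 3 points per number and gene. The number 3 points lie above those of numbers 1 and 2 for every gene, from Slco1a1 (165 to 503 CPM against at most 0.23) to Kap.

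The genes listed as female-biased did not move one way. Whether each of them, Cyp2a4 among them, is female-biased in kidney was not tested here, since no comparison of sexes was made. Nothing about female-biased genes is therefore read from their mixed directions. Of 10 tested, 5 rose and 3 fell, with and without the mismatched library, where 9.37% and 11.1% of all genes tested did. Abcc3, an organic anion exporter, rose from 4.65, 2.74 and 3.31 CPM to between 32.5 and 87.2 CPM, median 61.9 (log2 difference 4.11, adjusted p = 0.000101). Gsta4, a glutathione transferase, rose by 2.54 (adjusted p = 0.000124). Cyp2a4, a steroid hydroxylase with near-identical relatives, fell by 8.04 on the log2 scale (adjusted p = 6.12e-06), from 198, 111 and 312 CPM to at most 1.81 CPM. Fmo5 fell by 3.63 (adjusted p = 2.2e-05). The groups did not overlap for any of these 4.

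Serpina6, corticosteroid-binding globulin, had the largest rise of all genes tested. The gene lies at chr12:103646630-103657212 and is best known as a liver product. The 6 kidneys had 1189 and 1148 CPM at ZT6, 1379 and 331 at ZT14, and 2594 and 846 at ZT18, whereas the 3 had 0.00, 0.05 and 0.00 CPM. With 168707 reads in the 6 and 1 in the 3, the ratio per total count was 88198, with a 95% counting interval of 15829.5 to 3483640 (exact Clopper-Pearson; adjusted p = 0.000142 by edgeR). Serpina6 could pass the filter only through the 6, so nothing is read from that adjusted p. Other hepatocyte genes did not follow: of 13 tested, 1 rose and 1 fell, where 9.37% and 11.1% of all genes tested did. The list's mean was 2.10 to 3.93 log2 CPM in the 6 and 3.02 to 3.42 in the 3. Apob, the lipoprotein scaffold, was the faller, at 240, 214 and 191 CPM in the 3 and 3.63 to 12.5 CPM in the 6 (-4.61, adjusted p = 8.75e-05).

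Ugt1a2, a glucuronosyltransferase, was another large rise, with 27.9 to 444 CPM, median 51.6, against 0.37, 1.91 and 0.64 CPM (7.04, adjusted p = 0.000116). The ZT14 kidneys, at 444 and 371 CPM, were well above the other 4. Ugt1a10 had 83.4 to 200 CPM against 3.42, 13.1 and 3.58 CPM (4.54, adjusted p = 8.75e-05). Ugt1a isoforms share their 3′ exons, so the counting could split their reads. Rdh19, a retinol dehydrogenase, rose by 5.08 (adjusted p = 0.00408), and Chil3, a chitinase-like myeloid protein, by 5.55 (adjusted p = 0.0147), a call lost in 5 of 17 other settings.

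Several genes outside the male-biased list were nearly lost from the 6. Sec14l3 and Mpped1 had 0 reads in all 6 libraries and 1002 and 347 reads in the 3, at least 639-fold and 221-fold lower with 3 reads over the group as the floor. Slc22a26, an organic ion transporter, had 28.0, 24.3 and 28.3 CPM in the 3 and at most 0.18 CPM in the 6 (-8.55, adjusted p = 2.2e-05). Pzp, a protease inhibitor, differed by -7.87, Ugt2b37 by -7.78 and Ces1g, a carboxylesterase, by -6.40, each with no overlap and an adjusted p of 0.000131 or less.

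Proximal tubule genes fell together. Of 20 tested, 17 were lower and none higher, with a median of -1.27, and without the 4 genes shared with the male-biased list 13 of 16 were lower (median -1.20). Among all genes tested 11.1% were lower. Acsm2, a medium-chain acyl-CoA synthetase, had 239 to 1134 CPM, median 481, against 3768, 4252 and 3776 CPM (-2.92, adjusted p = 0.000353). Slc22a6 (OAT1), the transporter that takes up organic anions from blood, had 85.8 to 334 CPM, median 110, against 875, 744 and 763 CPM (-2.53, adjusted p = 0.000732). The ZT14 kidneys, at 259 and 334 CPM, were the least low. Napsa and Aqp1, also listed, did not pass, with differences of 0.79 and 0.41 (chosen after their values were seen). The count was 16 without the mismatched ZT18 library, 12 without the number 3 kidney of ZT6 and 9 without all kidneys of ZT6.

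Fatty acid oxidation genes were lower in 15 of 30 cases and higher in none, with a median of -1.11, and 16 were lower without the mismatched ZT18 library. Among all genes tested 11.1% were lower. Cd36, a fatty acid transporter, had 606, 449 and 353 CPM in the 3 and 31.8 to 79.1 CPM, median 41.5, in the 6 (-3.31, SE 0.26, adjusted p = 0.000116). Acadm, the medium-chain acyl-CoA dehydrogenase, fell from 1103, 1639.9 and 1197 CPM to between 378 and 531 CPM (-1.47, adjusted p = 0.000353). Acadvl and Hadh, also of this pathway, differed by -1.38 and -1.09. Of 7 adipocyte markers tested 2 were called lower, Lpl (-1.58) and Lipe (-0.89), and none higher, with a median of -1.38. The markers Adipoq, Plin1, Cidea and Ucp1 had 218 to 276 reads each in the number 3 kidney of ZT6 and 0 to 37 in the other 8. Without that kidney 12 fatty acid oxidation genes were called lower, and Cd36 differed by -3.10 (adjusted p = 0.00252). The part of fat tissue in these values was otherwise not tested. The omega-hydroxylases Cyp4a10 and Cyp4a14 did not pass, with differences of 0.04 and 0.82 (chosen after their values were seen).

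Gluconeogenesis and amino acid handling followed, with 13 of 20 genes lower, none higher and a median of -0.70. Pck1, which commits oxaloacetate to glucose synthesis, had 3421, 7187 and 6337 CPM in the 3 and 1082 to 2477 CPM, median 1535, in the 6 (-1.79, adjusted p = 0.00342). Fbp1 differed by -1.24 (adjusted p = 0.00287) and Agxt2, an aminotransferase, by -1.28 (adjusted p = 0.00107). That list had 5 calls without the number 3 kidney of ZT18, 8 without number 2 of ZT14 and 10 without the mismatched ZT18 library. Among 29 nuclear oxidative phosphorylation genes 4 were lower and none higher (median -0.19), where 11.1% of all genes tested were lower. All 4 calls were lost without number 3 of ZT6 or of ZT18. Of 13 mitochondrially encoded genes mt-Nd3 alone was called, lower. Of 20 cholesterol and fatty acid synthesis genes 2 rose and 2 fell, near the shares of all genes tested (9.37% higher and 11.1% lower). Cyp51, a sterol demethylase, had 400, 318 and 240 CPM against 70.0 to 122 CPM (-1.80, adjusted p = 0.000337).

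As lists, podocyte, endothelial and stromal markers did not share the fall of the proximal tubule. Podocyte genes rose in 9 of 10 cases (median 0.99), 9 without the mismatched ZT18 library, 4 with all 36 kidneys in the fit and 2 without all kidneys of ZT6. Among all genes tested 9.37% rose. Endothelial genes rose in 9 of 12 cases (median 0.87) and stromal genes in 7 of 14 (median 0.89; 5 without the mismatched library, 2 to 4 without number 1 or 3 of ZT6, number 2 of ZT14 or number 3 of ZT18). All 9 endothelial calls were lost without the number 3 kidney of ZT6, without that of ZT18 and without all kidneys of either time, while 9 were made without the mismatched ZT18 library. Because CPM is relative to the whole library, a rise of these markers and a fall of abundant tubule transcripts cannot be told apart on this scale.

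In the distal tubule and collecting duct 7 of 17 genes rose and 2 fell. The shares of all genes tested were 9.37% and 11.1%, so nothing is read from the number of falls. The rises were 7 without the mismatched library and 3 or 4 without any 1 kidney of ZT6, number 1 of ZT14 or number 3 of ZT18. Aqp2, the vasopressin-regulated water channel, had 539.6 to 1729.6 CPM, median 1139, against 579, 212 and 435 CPM (1.51, adjusted p = 0.00574), with overlap through the number 1 kidney of ZT14. Foxi1, the intercalated cell factor, rose by 0.86 (adjusted p = 0.00336) with no overlap. Pvalb, a marker of the distal convoluted tubule, had 1.05 to 14.8 CPM against 14.9, 31.7 and 22.9 CPM (-2.81, adjusted p = 0.00384). Loop of Henle genes gave 2 rises and 2 falls of 12, where 9.37% of all genes tested rose and 11.1% fell. Umod (uromodulin) had 393 to 3864 CPM in the 6, with the ZT14 kidneys inside the range of the 3, and its call was lost in 7 of 17 other settings.

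**Figure D4:**
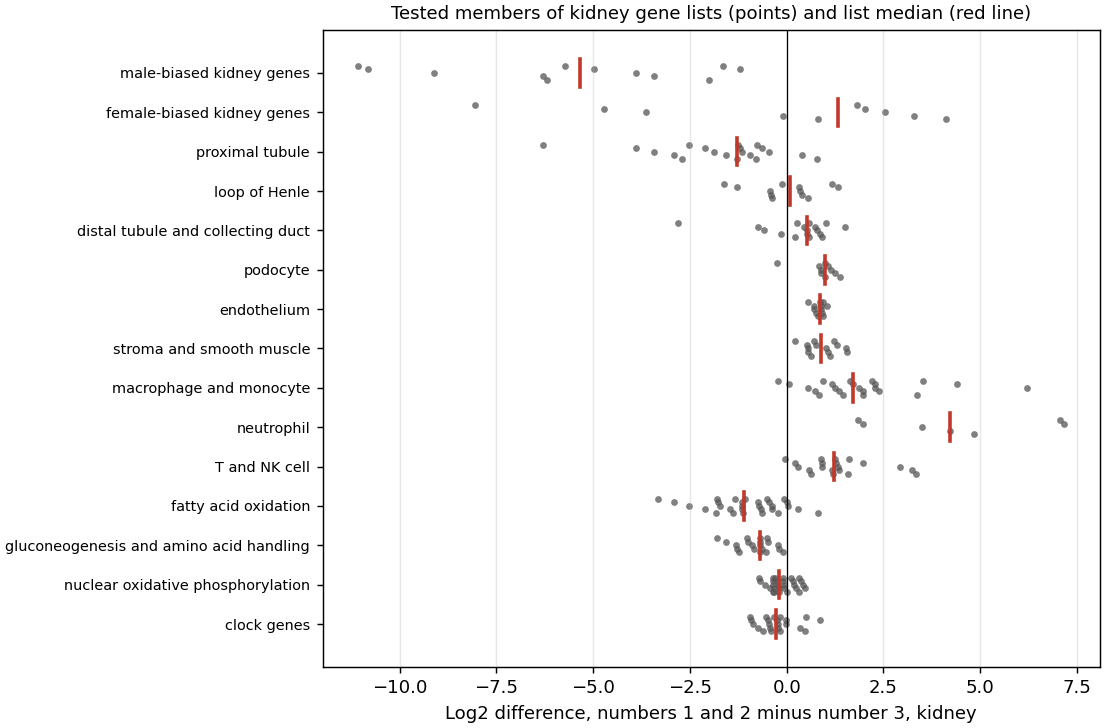
Log2 differences in kidney (numbers 1 and 2 minus number 3, x axis) of the tested genes of 15 lists (y axis), with the list's median in red. The medians of male-biased (-5.35), proximal tubule (-1.27) and fatty acid oxidation (-1.11) genes lie to the left of 0. Those of neutrophil (4.22), macrophage (1.71) and podocyte (0.99) genes lie to the right. Some proximal tubule, fatty acid oxidation, macrophage and podocyte genes lie on the side opposite to their median.

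Tubule injury and matrix genes gave mixed calls. Among all genes tested 9.37% rose and 11.1% fell, so nothing is read from the number of falls in either list. Of 20 injury genes 7 rose and 2 fell, with 6 rises without the mismatched library, 4 without number 2 of ZT14 and 1 without number 3 of ZT18. Spp1 (osteopontin) had 1278 to 1906 CPM against 857, 847 and 919 CPM (0.87, adjusted p = 0.00925), a call lost in 4 of 17 other settings. The falls were Plin2, a lipid droplet coat protein (-1.14, adjusted p = 0.0141, lost in 1 setting), and Havcr1 (KIM-1), the classical injury marker (-2.06, adjusted p = 0.0416, at means of 0.22 and 0.89 CPM, named after its value was seen). Of 20 extracellular matrix genes 10 rose and 1 fell, with 9 rises without the mismatched library, 3 rises without the number 3 kidney of ZT6 or without all kidneys of ZT6, and 5 without the number 3 kidney of ZT18 or all kidneys of ZT18. Tgfbi, a matrix protein induced by TGF-beta, had 14.7 to 36.7 CPM, median 26.5, against 7.33, 7.04 and 7.53 CPM (1.82, adjusted p = 0.000736), and Acta2, smooth muscle actin, rose by 1.03 (adjusted p = 0.00248).

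Cell cycle genes, which separate the livers of the same numbers, gave almost no calls in kidney. None of 31 was called higher by edgeR and 3 were higher at an unadjusted p under 0.05, while DESeq2 called 2 higher and Nusap1, a spindle protein, was called lower. The list's mean was 0.92 to 1.91 log2 CPM in the 6 kidneys and 0.89 to 1.45 in the 3. Clock genes gave 2 falls of 22, where 11.1% of all genes tested were called lower, so nothing is read from the count. The falls were Rora (-0.95, adjusted p = 0.00538) and Hlf (-0.87, adjusted p = 0.0145). Both lost the call in some settings, Rora in 1 and Hlf in 4. Glucocorticoid targets gave 2 falls of 14, heat shock genes 2 rises and 2 falls of 16, and immediate early genes 5 rises of 20. Of all genes tested 9.37% rose and 11.1% fell. Without the mismatched library there were 2 immediate early rises, and between 0 and 11 without another 1 of the 9.

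Levels in the other iKO kidneys give context, without a test. At ZT2 and ZT10 all 6 kidneys had low effectors, at 1.94 to 2.36 mean log2 CPM, and high male-biased genes, at 9.29 to 9.99. At ZT22 all 3 had high effectors, at 3.92, 4.59 and 4.55. There the male-biased genes were at 9.18, 5.30 and 3.15 in numbers 1, 2 and 3, so number 1 had high effectors with male-biased genes close to their level at ZT2 and ZT10. Slco1a1 was at 177, 0.49 and 0.00 CPM in these 3 kidneys, and Serpina6 at 0.12, 11.9 and 126 CPM. Serpina6 had 0 reads in all 6 kidneys of ZT2 and ZT10. Among the Bmal1-flox kidneys, number 1 of ZT6 and number 1 of ZT22 had effectors at 5.24 and 4.85 and male-biased genes at 4.57 and 5.85. Numbers 2 and 3 of ZT22 had effectors at 4.04 and 3.11 with male-biased genes at 7.07 and 6.42, and number 2 of ZT6 had 3.54 with 9.18, so the order of the 2 lists was not the same in all kidneys.

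**Figure D5:**
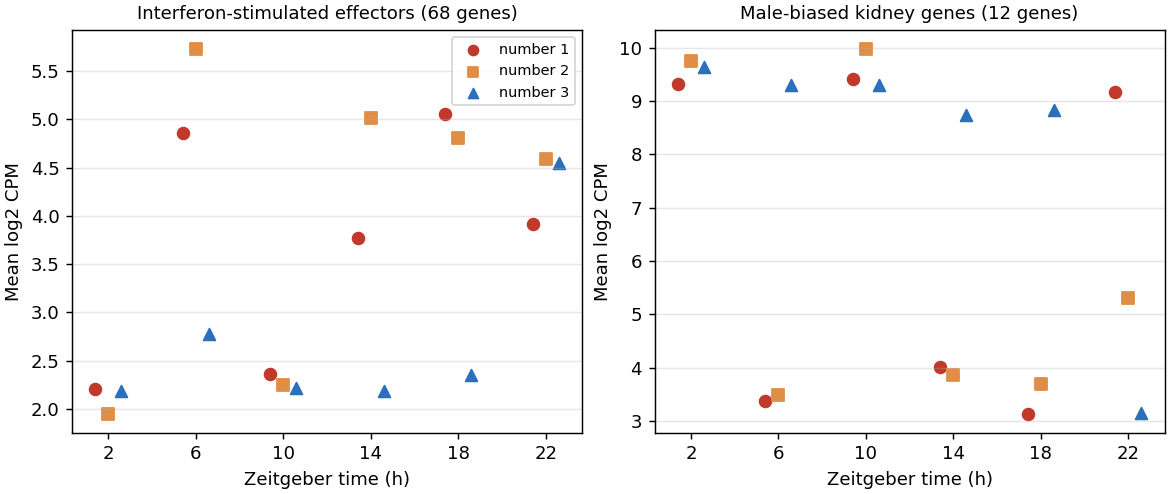
Mean log2 CPM (y axis) of 68 interferon-stimulated effectors (left) and 12 male-biased genes (right) in all 18 iKO kidneys by zeitgeber time (x axis). At ZT6, ZT14 and ZT18 numbers 1 and 2 are high on the left and low on the right, and at ZT22 number 1 is high on both (3.92 and 9.18).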

How the data were processed

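RNA was extracted with Trizol, made into libraries with a NEBNext Ultra RNA kit and sequenced on an Illumina instrument with 150 bp reads, per the labels' protocols. The authors deposited 1 table of whole-number read counts per gene for 55416 genes and 108 libraries, not normalized. HISAT2 2.0.4, featureCounts 1.5.0-p3, DESeq2 1.16.1 and GRCm38 (mm10) are named, per the submitters' processing notes; the sources used here do not give their order, settings or strand, so overlapping and antisense genes cannot be told apart. Of 52135 genes matched by identifier to GENCODE M21 (GRCm38), 2.97% had the same start and end in the deposited table although 98.9% had the same span. The table's own positions were therefore not used, and gene positions are those of GENCODE M21.

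The 6 kidneys of numbers 1 and 2 were compared with the 3 of number 3 by edgeR 4.0.16 in R 4.3.3: filterByExpr over the 2 groups, TMM, robust quasi-likelihood test with time as covariate, and Benjamini-Hochberg adjustment over all genes tested, called at an adjusted p under 0.05. A gene near 0 in 1 group could pass the filter only through the other group, so nothing is read from its p-value. Common variation was 0.244 in kidney and 0.668 in WAT. Levels are CPM scaled by TMM over all 36 libraries of a tissue, in log2 with a prior count of 2. No 2 of the 9 kidneys agreed within sampling noise (lowest chi-square per degree of freedom 23.9). Intervals between groups cover these libraries only.

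The members and the 41 gene lists (768 entries, 2 not in the table) were chosen with earlier results of these data known. Named genes are Ifit1, Isg15 and, per interferon list, up to 8 genes with the highest mean CPM plus any moving against the majority; outside these lists, the 10 largest called rises and 10 largest called falls whose log2 CPM averaged 1 or more and whose sign was equal at all 3 times, passing over predicted genes, pseudogenes and receptor segments; and up to 4 called genes with the smallest p per other list. Others are marked where named. Alternatives were DESeq2 1.42.0, DESeq2 size factors, no filter, no mitochondrial genes, all 36 libraries, and leaving out each time or library.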

Additional observations from a re-analysis of the deposited data

Results flagged for a closer look

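Of 92 list means and named genes examined for a library far from the other 5 of numbers 1 and 2, 4 had one, which chance gives in about 1 of 20. In each it was the number 1 kidney of ZT14, on the low side. Its complement mean was 3.13 log2 CPM, against 3.75 to 3.96 in the other 5. Its mean for nucleic acid sensors and interferon regulatory factors was 3.07, against 3.85 to 4.32. Myd88, an adaptor of Toll-like receptors, was at 3.87 log2 CPM against 4.61 to 4.98, and S100a9 at 0.37 against 2.58 to 3.48.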

How the results depend on the processing

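The effectors' median log2 difference stayed between 2.38 and 2.67 when 1 library was left out, and all 12 male-biased genes stayed called in most settings (10 to 12). Counts of calls moved with the libraries. Without all kidneys of ZT6 there were 1097 calls (417 higher, 680 lower) and 9 lower proximal tubule genes, and without those of ZT18 there were 1349 (512 higher, 837 lower). Leaving out 1 library gave 1434 to 3692 calls, 562 to 1741 higher and 872 to 1951 lower, with 12 to 16 lower proximal tubule genes. The low ends came without the number 3 kidney of ZT18, and the higher calls also fell without number 2 of ZT6 (950) or of ZT14 (1023). DESeq2 called 2100 higher and 2185 lower. In WAT, DESeq2 called 3271 genes, no filter gave 917 and leaving out 1 library gave 0 to 33, the 33 without number 3 of ZT6. The cause was not tested. Ifngr1 and Mavs, both near 0, changed sign: Ifngr1 was -0.0674 without ZT6, -0.0355 without ZT18 and between -0.0749 and 0.228 without 1 library, and Mavs was 0.118, 0.0439 and between -0.253 and 0.110. Of 119 tested named genes 54 kept their call in all 17 alternatives. Whether the difference between numbers changed with time could not be decided. Number 3 had 1 library per time, and that fit left 3 residual degrees of freedom. No paired analysis was possible because the replicate number itself defines the groups.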
